A study of Mus musculus with 5 samples.

Results

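The glucocorticoid receptor gene Nr3c1 and 8 genes known as targets of the receptor (Tsc22d3, Fkbp5, Txnip, Ddit4, Klf9, Per1, Sgk1 and Pik3ip1) were followed in single T cells from mouse brain. The 9 genes were chosen by name; each had a UMI (a unique molecular identifier, one counted tag) in the kept cells, in which 15952 genes had one. The cells were sorted as CD45+CD11b-TCRβ+ from the parenchyma of 5 mice, with choroid plexus left out. All mice were of the strain Grl1loxP/loxP, which carries loxP-flanked receptor alleles, and all received foot shocks. TAT-CRE 207, 208 and 215, aged 18, 18 and 19 weeks, had been injected with the cell-permeable recombinase TAT-CRE into the ventricles, and PBS 216 and 218, aged 19 and 16 weeks, with PBS. The aim was a receptor knockdown at the choroid plexus, and cells were taken on day 14 after stress. The T cells themselves are not stated to be recombined, and whether counted tags lie between the loxP sites is not given in the sources used here, so Nr3c1 counts check nothing about the knockdown.

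The receptor is held in the cytoplasm by heat shock proteins and moves to the nucleus when it binds corticosterone, the glucocorticoid of mice. There it binds DNA as a dimer at a palindromic element and raises or lowers nearby transcription. In T cells glucocorticoids are known for dampening cytokine production, for promoting death of immature cells and for shaping migration between blood, marrow and tissue. Several targets are shared with FOXO factors, the circadian clock or nutrient stress, so their transcripts do not read the receptor alone.

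Of 1900 wells sorted with 1 cell, 1482 were kept, 912 from the 3 TAT-CRE mice (311, 303 and 298) and 570 from the 2 PBS mice (296 and 274). Values per mouse follow this order throughout: TAT-CRE 207, 208 and 215, then PBS 216 and 218. A well was kept with 400 or more UMIs that were not spike-ins, of which no more than 30% were mitochondrial. Median depth was 993 to 1953 UMIs in TAT-CRE mice and 1410 and 2660 in PBS mice. Each library was taken as 1 mouse with a plate and amplification batch of its own, so mouse, plate and amplification cannot be told apart. TAT-CRE 208 was the shallowest and stood apart, with 28.3% of its UMIs from ribosomal RNA genes against 43.9% to 48.0% in the others. PBS 218, the deepest, stood apart in the wells removed. It lost 102 wells to the UMI limit, against 15 to 48 in the other mice, and 4 to the mitochondrial limit, against 29 to 60. The sorted identity held in the transcripts: 86.5% to 96.5% of cells per mouse had a UMI of a T cell marker. Choroid plexus markers summed to 5.10 to 11.6 CPM (UMIs per 1000000 UMIs) in TAT-CRE mice and 4.77 to 10.8 CPM in PBS mice, with Folr1, Kl and Clic6 at 0. No neutrophil marker had a UMI. Sums were higher for markers of monocytes or macrophages (88.3 to 145 CPM over the 5 mice, led by Ccr2, with Lyz2, Adgre1 and Ms4a7 at 0). Oligodendrocyte markers summed to 88.3 to 133 CPM, led by Mbp, with Mog and Mag at 0. Endothelial markers summed to 18.7 to 147 CPM, all from Pecam1. Microglia markers summed to 5.10 to 74.5 CPM and 33.4 to 84.7 CPM, with P2ry12, Tmem119, Csf1r and C1qb at 0.

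Promoter windows of RefSeq (GRCm38.p6) were found for the 8 targets, 16 windows in all, and the 250 bases before each start were searched on both strands. The full receptor palindrome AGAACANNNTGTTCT was in 1 of these, at Sgk1, and in 0.00913% of 32851 windows. A looser form, GNACANNNTGTNC, which covers every match of the full one, was in 2 of them, at Sgk1 and Txnip, and in 0.387% of all windows. These are shown because they are the only windows of the targets that hold a palindrome of either form, which is in capitals. Both lie on the + strand. The Txnip window is chr3:96557707-96557956, with the match from 172 to 160 bases before the start, and overlaps an exon of the antisense gene Gm15441. The Sgk1 window is chr10:21993640-21993889, with the match from 189 to 175 bases before one of several starts, and lies in an intron of longer Sgk1 transcripts.
Txnip: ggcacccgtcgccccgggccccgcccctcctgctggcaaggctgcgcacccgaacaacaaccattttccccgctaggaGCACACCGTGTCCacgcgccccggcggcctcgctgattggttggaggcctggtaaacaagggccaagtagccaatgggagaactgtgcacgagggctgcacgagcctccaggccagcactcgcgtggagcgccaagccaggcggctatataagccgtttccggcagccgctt
Sgk1: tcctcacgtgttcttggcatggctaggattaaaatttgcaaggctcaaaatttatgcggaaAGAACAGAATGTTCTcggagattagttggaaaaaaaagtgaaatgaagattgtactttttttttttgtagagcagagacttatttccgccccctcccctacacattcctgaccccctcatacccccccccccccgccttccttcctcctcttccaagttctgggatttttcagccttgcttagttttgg
A single arm of the palindrome, AGAACA, was in 16.1% of all windows and in windows of Sgk1 and Tsc22d3. TGTTTAC, a FOXO motif, was in 3.17% of windows, those of Klf9 and Txnip among them, and CACGTG, the E-box used by clock factors, in 6.02%, with Fkbp5, Per1 and Sgk1 among them. A match of letters is a description of these windows and shows no binding.

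Nr3c1 (mm10 chromosome 18, 39410545 to 39519421) had 556 UMIs in 147 of 1482 cells, 9.92% (95% Clopper-Pearson interval 8.44 to 11.6, counting error only). None of the 20 empty wells had an Nr3c1 UMI, but these held only 17 to 160 UMIs each. Cells with an Nr3c1 UMI were deeper, with a median of 2321 UMIs against 1571 in the others. A cell without an Nr3c1 UMI may therefore still express the gene.

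Within the cells that carried it, the receptor transcript came in groups of UMIs. Of the 147 cells, 49 had 1 UMI, 80 had 3 or more, and the highest had 18, in PBS 218. The mean was 3.78 UMIs per positive cell, where a Poisson count found in the same share of cells would give 1.05. For 437 genes found in a like number of cells (0.8 to 1.25 times as many) the median was 2.58, and Nr3c1 stood at the 96.8th percentile among them. Grouping was not limited to cellular RNA: 7 spike-ins found in 5% to 20% of wells, added as free molecules, had 1.75 to 2.85 UMIs per positive well. Whether UMIs of one cell stand for separate molecules was not tested, and shares of cells are given beside the sums. The targets had fewer UMIs per positive cell: Txnip had 3.48, Klf9 2.85, Tsc22d3 2.60, Sgk1 2.60, Fkbp5 2.48, Pik3ip1 1.89, Per1 1.52 and Ddit4 1.43.

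**Figure D1:**
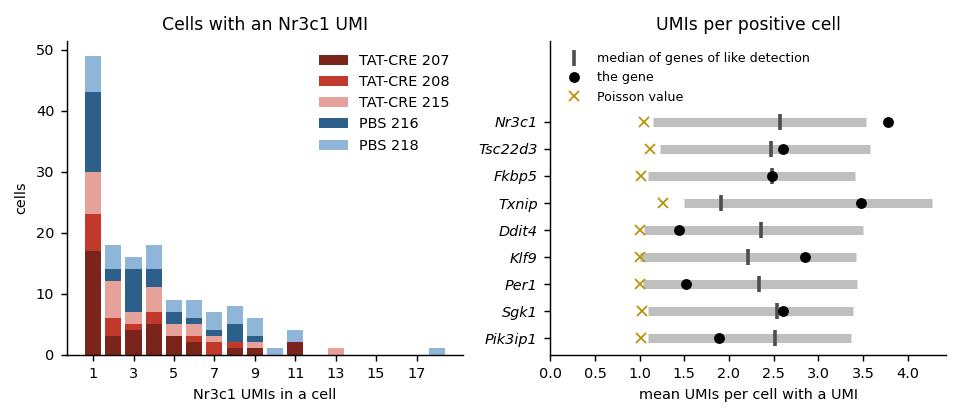
Left, cells (y axis) by number of Nr3c1 UMIs (x axis, from 1), coloured by mouse; 49 cells sit at 1 UMI and the tail reaches 18. Right, mean UMIs per cell with a UMI for each of the 9 genes (black point), the median (tick) and the 5th to 95th percentile (grey bar) of genes found in a like number of cells, and the Poisson value (cross); Nr3c1, at 3.78, lies beyond the grey bar, which ends at 3.54.

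Per mouse, Nr3c1 was found in 38, 16 and 26 cells of the TAT-CRE mice, against 33 and 34 cells of the PBS mice. These are 12.2%, 5.28% and 8.72% against 11.1% and 12.4% of cells, and the groups overlapped. UMIs numbered 121, 51 and 92 against 106 and 186, or 175, 141 and 156 CPM against 191 and 222 CPM. By CPM the groups did not overlap, with TAT-CRE mice lower, 157 ± 17.0 (SD, n = 3) against 206 ± 21.7 (SD, n = 2). In increasing order the CPM ran TAT-CRE 208, 215 and 207, then PBS 216 and 218; TAT-CRE 207 and PBS 216 differed by less than the SD of either group. With every cell thinned to 400 UMIs the share was 4.13 ± 0.523% against 5.50 ± 0.784%. PBS 218 also had the most UMIs per carrier, 5.47 against 3.18 to 3.54 in the other mice. It was the deepest library, with a median of 2660 UMIs, and 1 of its cells held 18 of its 186 Nr3c1 UMIs. The part of depth in UMIs per carrier was not tested. In edgeR's quasi-likelihood fit the log2 fold change was -0.43 ± 0.29 (SE), which did not pass (adjusted p = 1.00, unadjusted p = 0.169). Over all genes 0 of 8683 passed (0%), with 323 at an unadjusted p under 0.05, while DESeq2 passed 1 gene, none of the 9.

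Separation of the groups by CPM was common among all genes: all TAT-CRE mice lay above both PBS mice for 9.95% and below them for 8.03% of 8683 genes. Of the 9 genes, Sgk1 and Pik3ip1 lay above and Nr3c1 and Klf9 below. Without the ribosomal RNA genes, which differ in TAT-CRE 208, the same 4 genes separated the same way, against 8.86% and 10% of all genes. Sums of some lists of cell type markers also separated the groups, but most lists overlapped. Overlapping lists included those of all T cells, CD8, naive or central memory, resident memory and gamma delta T cells. Those of microglia, monocytes or macrophages, oligodendrocytes and endothelium overlapped too. CD4 T cell markers summed to 419 to 590 CPM in TAT-CRE mice against 249 to 408 CPM in PBS mice, and regulatory T cell markers to 267 to 386 against 159 to 257 CPM. NK cell markers, led by Eomes, ran the other way, at 35.7 to 134 against 158 to 218 CPM. B cell markers, at 95.3 to 163 against 70.3 to 94.1 CPM, had Cd79a at 0 and were led by Ighm. Erythroid markers were at 0 in TAT-CRE mice, against 5.41 and 1.19 CPM in PBS mice. The part of these lists in the values of the 9 genes was not tested.

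Among the genes the receptor is best known to induce, Tsc22d3 (chromosome X, 140539528 to 140600659) encodes GILZ, a leucine zipper protein that mediates anti-inflammatory actions of glucocorticoids. It was found in 301 of 1482 cells, 20.3%. Its level was 270, 317 and 206 CPM in TAT-CRE mice, against 231 and 278 CPM in PBS mice. The groups overlapped, at 264 ± 56.0 against 254 ± 33.2 CPM (log2 -0.035 ± 0.24, edgeR adjusted p = 1.00). Its direction turned with the scaling, to 0.051 ± 0.31 with library sizes alone. After thinning, the shares were 8.23 ± 1.68% and 8.23 ± 0.378%. Tsc22d3 was the only one of the 9 genes with a UMI in an empty well, in 1 of 20.

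Fkbp5 (chromosome 17, 28399094 to 28517527) encodes a co-chaperone that lowers the receptor's affinity for its ligand and so closes a feedback loop. It was found in 46 cells, with 57.8, 46.9 and 32.3 CPM in TAT-CRE mice, against 48.6 and 13.1 CPM in PBS mice. The groups overlapped (log2 0.51 ± 0.64, edgeR adjusted p = 1.00). In TAT-CRE 208, 58.8% of its 17 UMIs came from 1 cell. Without PBS 218 the fold change turned to -0.20 ± 0.62.

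Sgk1 (chromosome 10, 21882184 to 21999903), a kinase of salt transport and T helper differentiation, was found in 60 cells. It stood at 46.2, 85.5 and 51.0 CPM in TAT-CRE mice, against 45.0 and 45.3 CPM in PBS mice. All TAT-CRE mice were higher by CPM, the lowest of them by about 1 CPM. Shares of cells overlapped, at 4.50%, 2.97% and 4.03% against 4.05% and 4.74%. Its log2 fold change was 0.30 ± 0.43 (edgeR adjusted p = 1.00).

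Per1 (chromosome 11, 69095217 to 69109960), a clock repressor that glucocorticoids induce directly, was rare. It had 7, 8 and 6 UMIs in TAT-CRE mice, against 0 and 11 in PBS mice, from 5, 5, 3, 0 and 8 cells. PBS 216, with 0 of 296 cells, allows a share of cells with a UMI of up to 1.01% (3 cells of 296), and the upper Clopper-Pearson bound is 1.24%. The groups overlapped (log2 0.89 ± 1.24, edgeR adjusted p = 1.00).

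Klf9 (chromosome 19, 23141226 to 23168134), a zinc finger transcription factor induced by glucocorticoids and thyroid hormone, was found in the fewest cells of the 9, 13, and had the largest fitted difference among them. UMIs numbered 2, 2 and 0 in TAT-CRE mice, against 18 and 15 in PBS mice. They came from 1, 1 and 0 cells against 6 and 5 cells, so that 2 of 912 TAT-CRE cells and 11 of 570 PBS cells carried it. In CPM this was 2.89, 5.52 and 0 against 32.4 and 17.9; in TAT-CRE 215, 3 UMIs would correspond to 5.10 CPM. The groups did not overlap by CPM, by share or by thinned share. The fitted log2 fold change was -3.30 ± 1.13 (unadjusted p = 0.0139, rank 85 of 8683 genes) and did not pass the test (edgeR adjusted p = 1.00, and 0.820 to 1.00 over 12 alternatives). One cell held 33.3% of the UMIs of PBS 216 and one 46.7% of those of PBS 218.

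Of the targets shared with nutrient and stress signalling, Txnip (chromosome 3, 96557957 to 96561883) encodes an inhibitor of thioredoxin and of glucose uptake. It was found in 572 cells, 38.6%, the most of the 9. It stood at 653, 778 and 721 CPM in TAT-CRE mice, against 656 and 555 CPM in PBS mice, and the groups overlapped at TAT-CRE 207 and PBS 216. The log2 fold change was 0.17 ± 0.21 (edgeR adjusted p = 1.00).

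Ddit4 (chromosome 10, 59949669 to 59951834), an inhibitor of mTORC1 also known as REDD1, was found in 23 cells. TAT-CRE 208 held 14 of its 33 UMIs and 10 of its 23 cells; the other mice had 7, 2, 3 and 7 UMIs. The groups overlapped (log2 1.03 ± 1.12, edgeR adjusted p = 1.00).

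Pik3ip1 (chromosome 11, 3330401 to 3342971), a membrane protein that restrains PI3K, had 33, 25 and 22 UMIs in TAT-CRE mice, against 5 and 17 in PBS mice. This was 47.7, 69.0 and 37.4 CPM against 9.01 and 20.3 CPM, with each TAT-CRE mouse above both PBS mice. The number of cells overlapped, with 19, 9 and 11 against 4 and 11, while the thinned shares did not, at 1.32 ± 0.178% against 0.717 ± 0.245%. The log2 fold change of 1.66 ± 0.60 (unadjusted p = 0.0180, rank 109 of 8683) did not pass the test (edgeR adjusted p = 1.00, and 0.917 to 1.00 over 14 alternatives). With cells counted in place of UMIs it was 0.94 ± 0.48.

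Summed, the 8 targets gave 1098, 1363 and 1061 CPM in TAT-CRE mice, against 1027 and 951 CPM in PBS mice. Without Txnip the sums were 445, 585 and 340 against 371 and 396 CPM, and the groups overlapped. At least 1 target UMI was seen in 46.2% of cells of TAT-CRE 208, the shallowest library, and in 52.7% to 65.0% of cells of the other mice.

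**Figure D2:**
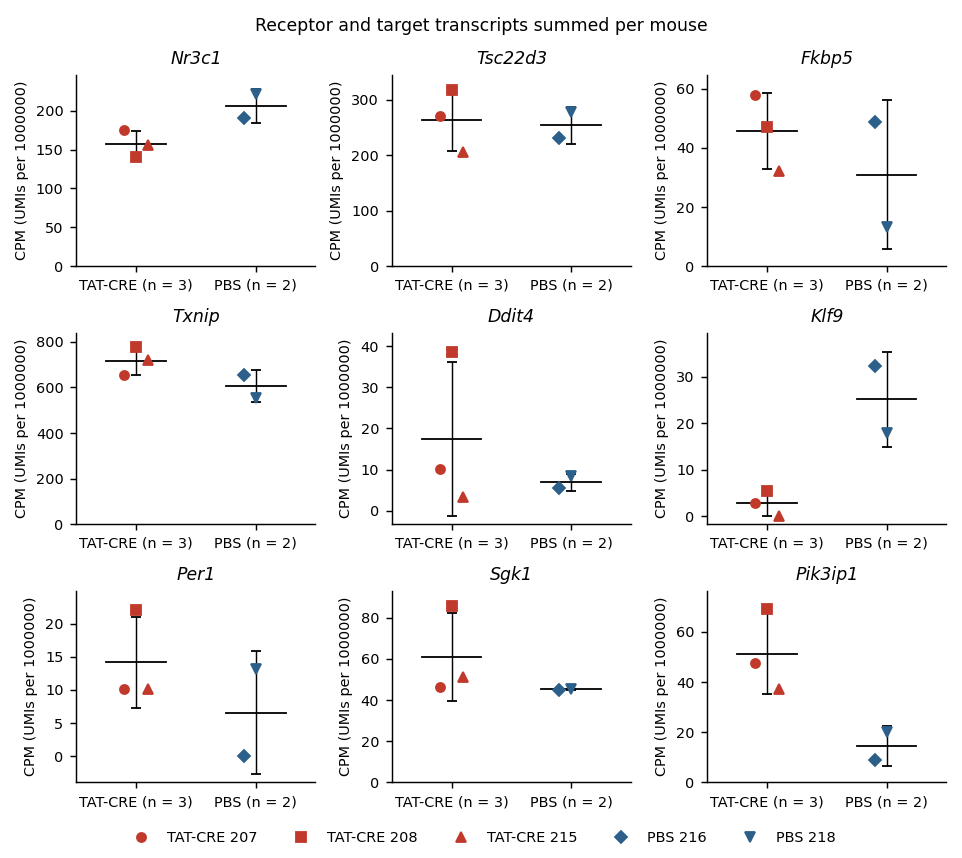
CPM (y axis, UMIs per 1000000 UMIs summed over the kept cells of a mouse) of the 9 genes in 3 TAT-CRE and 2 PBS mice; points are mice, horizontal lines means and bars SD. The groups do not overlap for Nr3c1 and Klf9 (lower in TAT-CRE mice) or for Sgk1 and Pik3ip1 (higher), and no gene passed the test.

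The cells that carried Nr3c1 were first split by coreceptor transcripts. Cd4 cells had a Cd4 and no Cd8a or Cd8b1 UMI (85 cells, 8 to 23 per mouse), and Cd8 cells the reverse (630 cells). Another 742 cells had neither and 25 both. Of the 20 empty wells, 1 had a Cd8a UMI, 2 had a Cd8b1 UMI and 0 had a Cd4 UMI. A class can rest on 1 UMI, and the part of such background in the classes was not tested. Nr3c1 was found in 11 Cd4 cells, 12.9% (6.64 to 22.0), in 71 Cd8 cells, 11.3% (8.91 to 14.0), in 60 cells with neither, 8.09% (6.23 to 10.3), and in 5 cells with both. Cells with neither were shallower, with a median of 1315.5 UMIs against 1717 in Cd4 and 1985.5 in Cd8 cells, and their share lay near that of Cd8 cells once every cell was thinned to 400 UMIs. As means of 5 mice the shares were 8.43% in cells with neither and 10.5% in Cd8 cells before thinning, and 4.37 ± 1.40% and 4.63 ± 1.16% (SD) after it. The intervals of the Cd4 and Cd8 cells overlapped, but they pool the cells of 5 mice and leave out the spread between mice. In Cd4 cells the mean share of 5 mice after thinning was 7.15 ± 5.72% (SD). It was above that of Cd8 cells in 3 of 5 mice, on 8 to 23 Cd4 cells per mouse.

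Nr3c1 in Cd8 cells stood at 180, 183 and 93.0 CPM in TAT-CRE mice, against 199 and 164 CPM in PBS mice. In Cd4 cells it stood at 81.4, 634 and 415 CPM against 0 and 574 CPM. It was thus higher in Cd4 cells in 3 of 5 mice, on few cells: the 18 UMIs of PBS 218 all lay in 1 cell. The paired fit with mouse as a term gave a log2 difference of 0.042 ± 0.61 (edgeR adjusted p = 0.979).

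Scaling bears on this comparison. TMM factors, which edgeR uses to make sums comparable, were 0.959 to 1.54 in Cd4 and 0.713 to 1.08 in Cd8 sums, and the median log2 difference of all 6716 genes was -1.18, against -0.57 with library sizes alone. By TMM 48 genes (0.715%) passed, all with a negative fitted difference, and 15 to 38 when a mouse was left out. For 3 of the 48 (mt-Rnr1, mt-Rnr2 and Tmsb4x) the mean CPM was higher in Cd4 cells, against the fitted sign, and the cause was not tested. With library sizes alone 2 genes passed (0.0298%). None of the 9 genes passed under either scaling. With library sizes alone Nr3c1 stood at 0.69 ± 0.60.

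Of the targets, Txnip had the smallest unadjusted p (0.0463) at -0.65 ± 0.33 by TMM, and -0.0059 ± 0.33 with library sizes alone, with 656 against 643 CPM on average. Tsc22d3 was at 246 against 245 CPM (log2 -0.94 ± 0.55, and -0.29 ± 0.56 with library sizes alone). Both differences lay nearer 0 than the median of all genes under their scaling. Klf9 had no UMI in the 85 Cd4 cells, which allows a share of cells with a UMI of up to 3.53% (3 cells of 85; the upper Clopper-Pearson bound is 4.25%), and 20 UMIs in 7 Cd8 cells. Sgk1 had 7 UMIs in 1 Cd4 cell and 78 in 29 Cd8 cells. Ddit4 was found in 4 of 85 Cd4 and 8 of 630 Cd8 cells, Fkbp5 in 5 and 25, Pik3ip1 in 3 and 31 and Per1 in 1 and 9. Per1 had too few UMIs to be tested, and the 7 tested targets had edgeR adjusted p of 0.276 to 0.935.

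The other split used Klf2, a factor of circulating naive and memory T cells, and Cxcr6, a chemokine receptor of tissue-resident T cells. Klf2 cells (Klf2 and no Cxcr6 UMI) numbered 139, Cxcr6 cells 384, cells with both 49 and with neither 910. Of the 20 empty wells, 2 had a Cxcr6 UMI and 0 had a Klf2 UMI, and the part of such background in these classes was not tested. Nr3c1 was found in 12 Klf2 cells, 8.63% (4.54 to 14.6), 46 Cxcr6 cells, 11.98% (8.91 to 15.7), 7 cells with both, 14.3% (5.94 to 27.2), and 82 cells with neither, 9.01% (7.23 to 11.1). Klf2 cells were the deeper of the first pair, with a median of 2395 UMIs against 1916.5.

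In Klf2 cells Nr3c1 stood at 268, 229 and 54.9 CPM in TAT-CRE mice, against 15.7 and 140 CPM in PBS mice. In Cxcr6 cells it stood at 177, 143 and 98.2 CPM against 203 and 273 CPM. It was higher in Klf2 cells in 2 of 5 mice, TAT-CRE 207 and 208. The paired log2 difference was -0.77 ± 0.51 (edgeR adjusted p = 0.860), beside a median of -0.53 over 5829 genes. By TMM 30 genes passed (0.515%), 6 higher in Klf2 cells and 24 lower; with library sizes alone 21 passed (0.36%), 9 higher and 12 lower. None of the 9 genes was among them.

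Pik3ip1 was the one of the 9 genes that was higher in Klf2 cells in 5 of 5 mice, as were 95 of the 5829 genes tested (1.63%). Its level was 66.9, 163 and 54.9 CPM in the Klf2 cells of TAT-CRE mice, against 15.7 and 29.4 CPM in those of PBS mice. In Cxcr6 cells it was 38.5, 65.2 and 35.1 CPM against 0 and 19.2 CPM. In PBS 216 the direction rests on 1 UMI in 1 Klf2 cell, against 0 UMIs in Cxcr6 cells. The means were 66.0 ± 58.0 and 31.6 ± 24.2 CPM (SD, n = 5), from 12 and 15 cells, and the difference did not pass the test (log2 0.88 ± 1.13, edgeR adjusted p = 0.988). Thinned shares were also higher in 5 of 5 mice, at 2.92% against 0.851%. Among Cd8 cells alone, a part of the same cells, Pik3ip1 was higher in Klf2 cells in 4 of 5 mice, with 73.8 against 22.5 CPM on average. These means rest on 12 UMIs in 6 Klf2 cells and 15 UMIs in 10 Cxcr6 cells. In TAT-CRE 208 the direction rests on 2 UMIs in 1 cell and in PBS 216 on 1 UMI, against 0 UMIs in Cxcr6 cells. Nr3c1 was higher in the Klf2 cells among Cd8 cells in 2 of 5 mice, with 145 against 140 CPM.

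The other targets did not keep to one side. Txnip was higher in Klf2 cells in 1 of 5 mice, with 572 against 661 CPM (log2 -0.41 ± 0.23, edgeR adjusted p = 0.738). Tsc22d3 was higher in 2 of 5, with 237 against 217 CPM, and its log2 difference of -0.12 ± 0.40 turned to 0.062 ± 0.41 with library sizes alone. Sgk1 was higher in 3 of 5, with 70.7 against 40.1 CPM, and Fkbp5 in 2 of 5, where 11 of 15 UMIs in Klf2 cells came from 2 cells of TAT-CRE 208. Klf9 had 7 UMIs in 3 Klf2 cells and 16 in 5 Cxcr6 cells. Ddit4 (9 and 7 UMIs) and Per1 (5 and 12) were too rare to be tested.

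**Figure D3:**
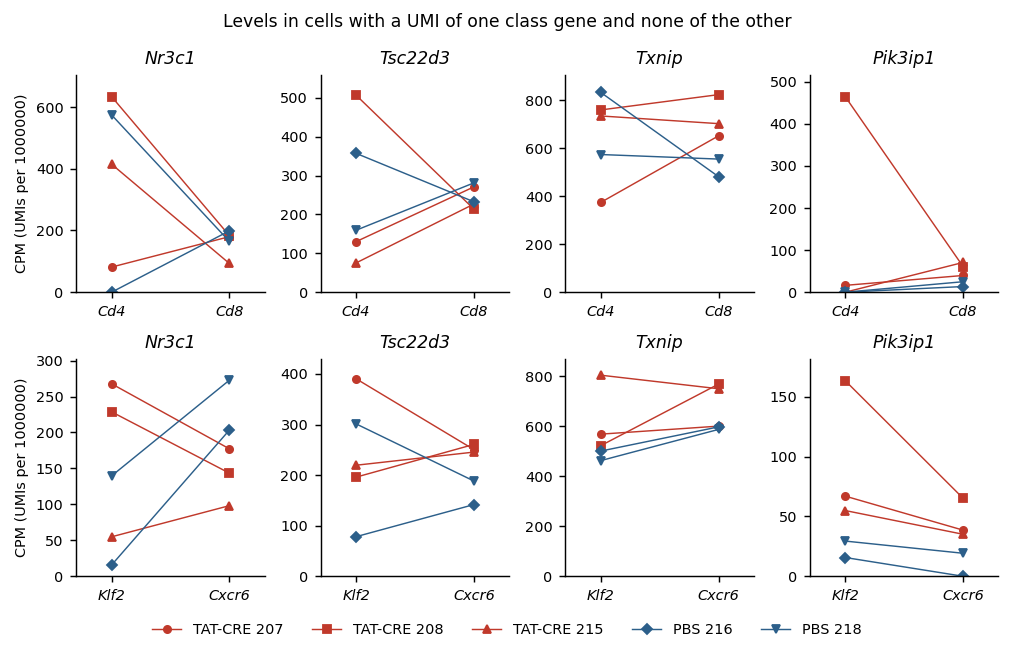
CPM (y axis) of Nr3c1, Tsc22d3, Txnip and Pik3ip1 in Cd4 and Cd8 cells (top) and in Klf2 and Cxcr6 cells (bottom); each line joins the 2 sums of a mouse. Mice move in both directions in all panels except that of Pik3ip1 in Klf2 and Cxcr6 cells, where all 5 fall, from a mean of 66.0 to 31.6 CPM.

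Target levels were next compared between cells with an Nr3c1 UMI and cells without, each mouse giving both sums. Pik3ip1 stood at 108, 511 and 0 CPM in the carriers of TAT-CRE mice, against 22.6 and 42.1 CPM in those of PBS mice. In the other cells it stood at 36.1, 46.4 and 41.9 CPM against 6.43 and 16.7 CPM. It was higher in carriers in 4 of 5 mice, but the 9 UMIs of TAT-CRE 208 came from 1 cell. The log2 difference was 0.97 ± 0.88 (edgeR adjusted p = 0.711), and 0.20 ± 0.58 with cells counted in place of UMIs.

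Per1 had 15 of its 32 UMIs in the 147 carriers, in 8 of its 21 cells. It stood at 54.0, 0 and 63.9 CPM in the carriers of TAT-CRE mice, and at 0 and 42.1 CPM in those of PBS mice, compared with 1.72, 23.2, 3.81, 0 and 8.33 CPM in the other cells of these mice in order. It was higher in carriers in 3 of 5 mice and had no UMI in PBS 216. The log2 difference of 2.24 ± 1.42 did not pass (edgeR adjusted p = 0.577), nor did that of 2.66 ± 1.39 with library sizes alone (edgeR adjusted p = 0.678).

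Ddit4 was higher in carriers in 4 of 5 mice, with 27.0 against 11.2 CPM (log2 0.92 ± 1.40), from 7 of 23 cells. TAT-CRE 207 held 6 of its 9 UMIs in carriers, and without that mouse the difference was -0.11 ± 1.60. In TAT-CRE 208, TAT-CRE 215 and PBS 218 the direction rests on 1 carrier UMI each, with 8.43 against 8.33 CPM in PBS 218. Tsc22d3 was higher in 3 of 5, with 312 against 254 CPM, and Txnip in 3 of 5, with 771 against 666 CPM. Both had negative log2 differences by TMM, -0.21 ± 0.38 and -0.25 ± 0.26, and positive ones with library sizes alone, 0.20 ± 0.34 and 0.17 ± 0.21. Fkbp5 and Sgk1 were higher in carriers in 1 of 5 mice each, with 24.7 against 41.0 CPM and 35.1 against 55.7 CPM, and Klf9 had 3 UMIs in 2 carriers. The edgeR adjusted p of these 6 genes was 0.634 to 0.882.

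By TMM 5 of 8682 genes (0.0576%) passed, all with a negative fitted difference, and none of the targets was among them. Of these 4 were ribosomal RNA genes, and the fifth was H2-K1, a class I molecule. For Gm42418, the first by p, the mean CPM ran the other way, with 215141 in carriers against 211465 in the others, and its log2 difference of -0.44 by TMM lay nearer 0 than the median of all genes. That median was -0.82, and -0.44 with library sizes alone, under which 0 genes passed (0%). At an unadjusted p under 0.05 there were 652 genes with that scaling by edgeR and 249 by DESeq2, which also passed 0 after adjustment. Carriers had lower sums of CD8 T cell markers, led by Ccl5, in 5 of 5 mice, 3492 against 4203 CPM. By coreceptor UMIs, however, Cd8 cells made up 48.3% of carriers and 42.5% of all cells. Carriers were deeper, with a median of 2321 UMIs against 1571 in the others, and deeper cells can show a coreceptor UMI more often. Cd8 cells were likewise deeper than cells with neither coreceptor, at 1985.5 against 1315.5 UMIs. After thinning, the mean shares with an Nr3c1 UMI were 4.63% and 4.37% in these classes. No difference in lineage is therefore read from the coreceptor shares. Also lower in carriers in 5 of 5 mice were markers of monocytes or macrophages (33.1 against 133 CPM, led by Ccr2), B cells (72.0 against 120 CPM) and endothelium (21.1 against 61.9 CPM). These low sums rest on few UMIs, since the smallest carrier sum of a mouse held 17562 UMIs over all genes. The monocyte or macrophage sums of carriers ran from 0 to 84.3 CPM over mice. Markers of dendritic cells, astrocytes, neurons and erythroid cells had no UMI in carriers. Those of all T cells, CD4 T cells, NK cells and gamma delta T cells were higher in carriers in 3 of 5 mice. The median log2 difference of all genes, given above, was itself below 0 in carriers. How many of all genes were lower in 5 of 5 mice was not counted. Naive or central memory T cell markers were lower in carriers in 4 of 5 mice (727 against 969 CPM) and resident memory T cell markers higher in 4 of 5 (1435 against 1251 CPM). The part of these lists in the target values was not tested.

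**Figure D4:**
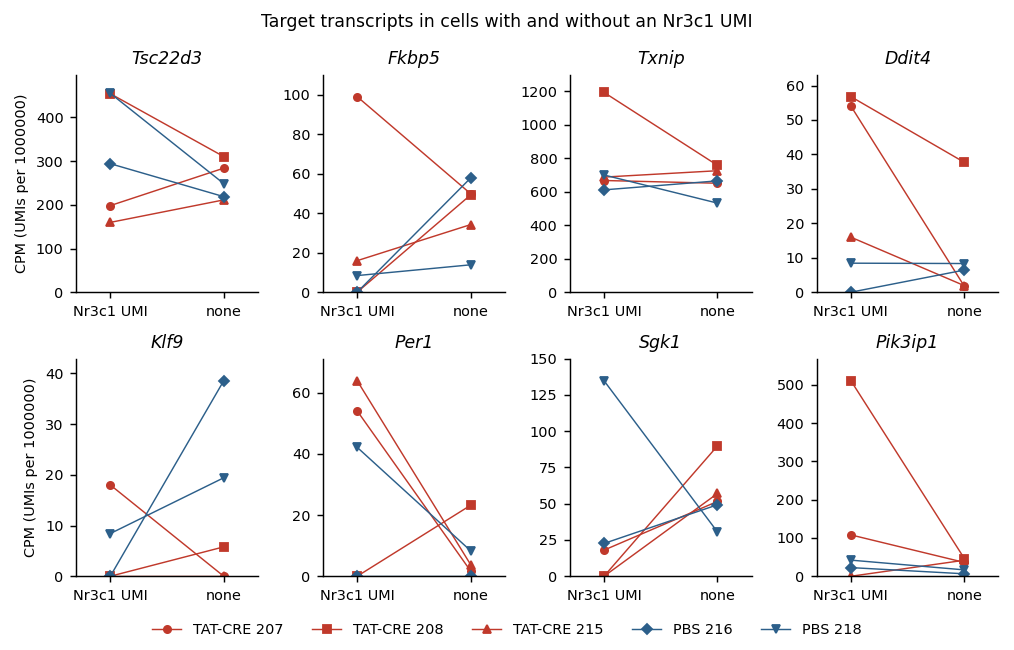
CPM (y axis) of the 8 targets in cells with and without an Nr3c1 UMI; each line joins the 2 sums of a mouse, red for TAT-CRE and blue for PBS. Pik3ip1 and Ddit4 are higher in carriers in 4 of 5 mice and Per1 in 3 of 5, and no target passed the test. For Ddit4 this rests on 1 carrier UMI in each of TAT-CRE 208, TAT-CRE 215 and PBS 218.

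Levels were also read by the number of Nr3c1 UMIs. Tsc22d3 stood at 252 CPM in 1335 cells with none, 234 in 67 cells with 1 or 2 and 345 in 80 cells with 3 or more. Txnip stood at 649, 709 and 678 CPM, Per1 at 6.44, 25.3 and 45.8 CPM and Pik3ip1 at 28.0, 31.7 and 95.7 CPM. Fkbp5 stood at 38.3, 76.0 and 4.16 CPM. These cells pool the 5 mice and are described without a test. The last values rest on 11 UMIs of Per1 in 5 cells, 23 of Pik3ip1 in 5 cells and 1 UMI of Fkbp5. Of the 23 UMIs of Pik3ip1, 9 came from 1 cell of TAT-CRE 208.

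Across cells of a mouse, Nr3c1 and its targets were correlated weakly. Residuals from a Poisson expectation at each cell's depth were correlated in each mouse and averaged, and no p is given, since cells of a mouse share a library. The highest mean Pearson r was 0.117 with Pik3ip1, from -0.038 in TAT-CRE 215 to 0.355 in TAT-CRE 208, where 1 cell held both. Next came Per1 at 0.0773 (4 mice), Ddit4 at 0.0617, Txnip at 0.0542 and Tsc22d3 at 0.0102. Sgk1, Klf9 (4 mice) and Fkbp5 were below 0, at -0.010, -0.015 and -0.022. Over all 36 pairs of the 9 genes the mean r ran from -0.036, for Txnip and Klf9, to 0.117. Tsc22d3 and Txnip, the pair seen together in the most cells (132), had a mean r of 0.0121, with -0.12 in TAT-CRE 207 and 0.120 in TAT-CRE 215. In counts this sparse no relation is read from these values.

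**Figure D5:**
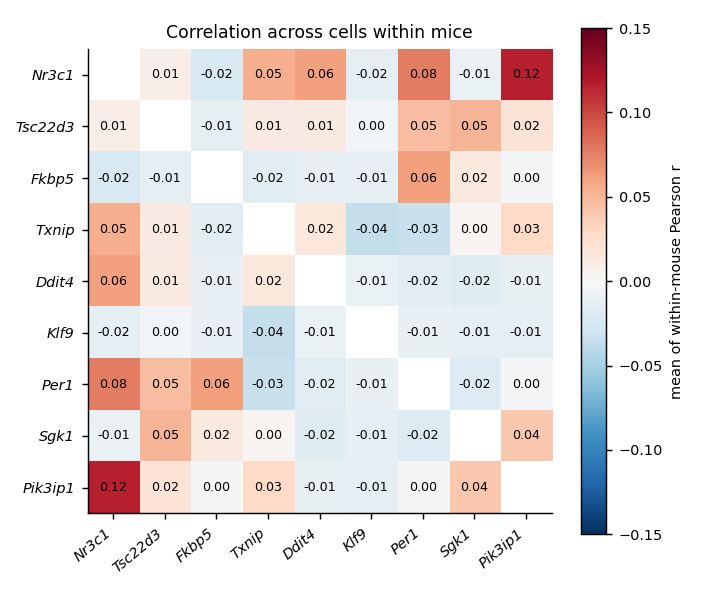
Mean over mice of the within-mouse Pearson r across cells for each pair of the 9 genes (colour, with the value printed; the diagonal is left blank). The values lie between -0.036 and 0.117, with the highest for Nr3c1 and Pik3ip1.

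By the same measure over 1052 genes found in at least 5% of cells of every mouse, those most like Nr3c1 were Atp5g3, a subunit of ATP synthase (mean r 0.118), B4galnt1, a ganglioside synthase (0.112), Rab14, a GTPase of vesicle traffic (0.102), Ifi203, an interferon-inducible gene (0.0899), and Rhog, a small GTPase (0.0839). Their values differed between mice, for Atp5g3 from 0.00172 in TAT-CRE 208 to 0.312 in TAT-CRE 215. Txnip, above 0 in 4 of 5 mice, ranked 30, where the 95th percentile of these genes was 0.0468, and Tsc22d3 ranked 315; the other targets were in too few cells. Counts of Ifi203 can be shared with its near copies.

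The wider pathway was read from lists of genes. In TAT-CRE against PBS mice none of the tested genes passed in any list. Of 10 receptor chaperones and ligand-handling genes 3 were above 0, with a median log2 of -0.18, beside 0.0086 over all genes. Coregulators of the receptor had 4 of 10 above 0 and a median of -0.030. Other glucocorticoid-induced genes had 9 of 11 above 0 and a median of 0.25. Genes that glucocorticoids repress in immune cells, most of them cytokines and chemokines, had 4 of 6 above 0 and a median of 1.11. FOXO and quiescence genes had 2 of 11 above 0 and a median of -0.27, and circadian clock genes 5 of 6 and 0.44. Early response genes, which also rise during tissue dissociation, had 7 of 13 above 0 and a median of 0.083. All these values are by TMM. With library sizes alone the median of all genes was 0.088, and coregulators had 6 of 10 above 0 and a median of 0.044. FOXO and quiescence genes then had 4 of 11 and -0.19, repressed genes 5 of 6 and 1.12, and early response genes 8 of 13 and 0.21. Counts above 0 in the other lists did not change.

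Between cell classes a few listed genes passed. Ccl5, a chemokine on the list of repressed genes and a product of CD8 effector cells, was lower in Cd4 than in Cd8 cells (log2 -2.89 ± 0.21, edgeR adjusted p = 1.29e-38) and lower in Klf2 than in Cxcr6 cells (-1.18 ± 0.14, edgeR adjusted p = 8.05e-13), under both scalings; the latter did not pass with no mouse term (edgeR adjusted p = 0.128). Hsp90ab1, the heat shock protein that holds the receptor ready for ligand, was lower in Cd4 cells (-1.17 ± 0.22) and in Klf2 cells (-0.62 ± 0.16) by TMM, near the medians of -1.18 and -0.53 of all genes, and passed neither with library sizes alone. In Klf2 cells it also did not pass without TAT-CRE 207, 208 or 215 or PBS 218 (edgeR adjusted p = 0.540, 0.259, 0.0702 and 0.0923). Ccr7 (4.63 ± 1.10) and S1pr1 (2.12 ± 0.55), FOXO targets of lymph node homing and egress, rose in Klf2 cells under both scalings. Neither passed with no mouse term (edgeR adjusted p = 0.128 and 0.216), where 0 genes passed as higher, and both had too few UMIs to be tested after thinning. Ccr7 did not pass without TAT-CRE 207 or PBS 218 (edgeR adjusted p = 0.498 and 0.401), nor S1pr1 without TAT-CRE 207, PBS 216 or PBS 218 (edgeR adjusted p = 0.0508, 0.490 and 0.542), with no filter on low counts (0.175) or with at least 800 UMIs per cell (0.158). Both belong to the list of FOXO and quiescence genes, of which 10 were tested; with library sizes alone Tcf7 passed too (1.10 ± 0.29, edgeR adjusted p = 0.0475). Pik3ip1 and Txnip, which FOXO factors also drive, did not pass there. In cells with an Nr3c1 UMI no listed gene passed in either direction: 0 of 10 chaperone, 0 of 10 coregulator and 0 of 11 other induced genes.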

How the data were processed

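UMI counts per gene and well were deposited by the authors as whole numbers, not normalized; mm10 and bcl2fastq 2.15.0.4 come from the submitters' processing notes, and no source used here gives the aligner, annotation or strand setting. A deposited column, per the file headers, gives the number of cells sorted per well, a value with no unit. Wells of 1 cell were kept with 400 or more UMIs that were not spike-ins, of which no more than 30% were mitochondrial, and raw counts were summed per mouse, or per mouse and class. The 5 libraries differed beyond sampling noise (chi-square per degree of freedom 4.31 to 5.90 per pair, without ribosomal RNA genes). Plates use the same 384 cell barcodes by design and share no wells.

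Sums were tested with edgeR 4.0.16 (R 4.3.3; TMM, quasi-likelihood, genes with at least 20 UMIs, Benjamini-Hochberg over all genes tested, threshold 0.05), with the mouse as a term between classes, where genes defining a class were left out. The standard error is the size of the log2 fold change divided by the root of F. DESeq2 1.42.0, other filters, leaving out each mouse, no mouse term and thinning were alternatives; library sizes alone, TMMwsp factors and counts of positive cells were added after the data were seen. The scripts were tested on simulated data. CPM are UMIs per 1000000 UMIs of the same cells. The genes, lists and naming rule (the 9 genes in every comparison, listed genes past the threshold, at most 6 per list, and the 5 genes most like Nr3c1) were chosen with earlier results of these data known. Positions are those of GENCODE M21. Genes overlapping Fkbp5, Txnip, Klf9 and Pik3ip1 held at most 1 UMI each. P-values measure the spread between these libraries. Results for some listed genes are not reported here.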

Additional observations from a re-analysis of the deposited data

How the results depend on the processing

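None of the 9 genes passed the test in any of 4 comparisons or 463 alternative values (smallest adjusted p 0.202). Of these values 29, over 14 of 32 results, changed sign; the cause was not tested. For TAT-CRE against PBS, Tsc22d3 turned to 0.082 with cells counted, 0.051 with library sizes alone and -0.12 to 0.057 without 1 mouse, Fkbp5 ran from -0.20 to 1.77 without 1 mouse, and Per1 was -0.00064 with 200 UMIs per cell. For Cd4 against Cd8 cells Nr3c1 was -0.10 without a filter on low counts, -0.20 with cells counted and -0.41 to 0.71 without 1 mouse (below 0 when TAT-CRE 208, TAT-CRE 215 or PBS 218 was left out), and Fkbp5 0.097 with cells counted. For Klf2 against Cxcr6 cells Tsc22d3 was 0.040 by DESeq2, 0.21 with cells counted, 0.062 with library sizes alone and -0.30 to 0.077 without 1 mouse; without 1 mouse Fkbp5 ran from -1.57 to 0.060, Klf9 from -1.07 to 0.36 and Sgk1 from -0.10 to 0.94. For Nr3c1 carriers DESeq2 gave 0.19 for Tsc22d3, 0.15 for Txnip and 0.67 for Klf9, library sizes alone 0.20 for Tsc22d3 and 0.17 for Txnip, and Ddit4 ran from -0.11 to 1.47 without 1 mouse.

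No paired analysis was possible because TAT-CRE and PBS mice share no replicate numbers. Between classes the mouse was the block; with no replicate block 42, 3 and 0 genes passed for Cd4 against Cd8 cells, Klf2 against Cxcr6 cells and Nr3c1 carriers, against 48, 30 and 5, and the block turned Pik3ip1 in Cd4 cells from 0.19 and, in Klf2 cells, Tsc22d3 from 0.033 and Fkbp5 from 0.46.

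Counts of genes that passed moved more. In TAT-CRE against PBS mice DESeq2 and counted cells passed 1 gene each and no filter on low counts 8, against 0. For Cd4 against Cd8 cells DESeq2 passed 3, counted cells 13, library sizes alone 2, thinned cells 20, and leaving out 1 mouse 15 (TAT-CRE 215), 22 (TAT-CRE 207), 24 (PBS 216), 28 (TAT-CRE 208) or 38 (PBS 218). For Klf2 against Cxcr6 cells counted cells passed 10, thinned cells 8 and leaving out 1 mouse 12 (TAT-CRE 207) to 26 (TAT-CRE 208), with 14 without TAT-CRE 215 and 16 without PBS 218. For Nr3c1 carriers DESeq2 and library sizes alone passed 0, no filter 15, no mitochondrial limit 15, no ribosomal RNA genes 14, counted cells 78, thinned cells 57 and leaving out 1 mouse 3 (TAT-CRE 215 or PBS 216) to 8 (TAT-CRE 207). The Klf9 share difference of -1.71 percentage points became -0.57 after thinning, and its mean correlation with Nr3c1 0.024 by Spearman. Of the 9 genes 6 were found in under 5% of cells, so differences among them rest on few cells.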
